A study of Mus musculus with 6 samples.

Results

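The circadian clock genes described here are Per1, Per2, Per3, Cry1, Cry2, Arntl, Clock, Nr1d1, Nr1d2 and Dbp, 10 of the 52513 genes in the deposited table, chosen by symbol. RNA came from spinal segments L4 and L5 (lumbar cord) of wild-type mice kept under equal periods of light and dark. The mice were injected intrathecally for 7 days with saline (3 libraries) or with morphine at 10 µg in 10 µL (3 libraries), and libraries are numbered as in the sample titles. The sources used here do not give strain, sex, age, the hour of dissection or the number of animals behind each library. The sample descriptions carry runs of 3, 3 and 2 numbers in each group without saying what they count, so whether a library pools several animals, and whether an SD here is between animals or between pools, is not known. Each level is in FPKM, a unit that scales fragments by the length of the transcript and the size of the library. All 10 genes passed the level set for testing, at least 1 FPKM in at least 3 libraries, as did 14614 genes in all.

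The clock of a mammalian cell is a loop of transcription. Arntl (also called Bmal1) and Clock form a dimer that binds E-boxes and switches on the Per and Cry genes, whose proteins return to block the dimer. The same dimer drives Nr1d1 and Nr1d2, nuclear receptors (REV-ERB alpha and beta) that repress Arntl through ROR elements, and Dbp, a transcription factor that acts on D-boxes. In the tissues of nocturnal rodents outside the central pacemaker, Arntl and Clock therefore peak towards the end of the night. Nr1d1 and then Dbp peak during the day, Nr1d2, Per1 and Per3 near the evening, Per2 in the early night and Cry1 later still. Dbp, Nr1d1 and Arntl are among the transcripts with the widest daily swing in many tissues, so their ratio within 1 library serves as a stand-in for the time of dissection.

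Stretches of the start regions are shown because the loop acts through these elements. Their link to the phase of each member was not tested. RefSeq windows (GRCm38.p6) running from 250 bases before to 50 bases after an annotated start matched 9 of the 10 genes, with 13 windows. A window of Per1 held an E-box, and another window of Per1 held none of the elements searched for. The window of Cry1 held an E-box and the E-box variant CACGTT read on the other strand, and that of Nr1d1 the same variant. The window of Per3 held a pair of D-boxes, and a window of Arntl held a ROR element. Capitals mark these elements, and each stretch is written 5′ to 3′ on the strand of the gene.
Per1, chr11:69098739-69098838, plus strand: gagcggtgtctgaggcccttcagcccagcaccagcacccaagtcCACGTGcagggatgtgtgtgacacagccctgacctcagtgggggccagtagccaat
Cry1, chr10:85185075-85185174, minus strand: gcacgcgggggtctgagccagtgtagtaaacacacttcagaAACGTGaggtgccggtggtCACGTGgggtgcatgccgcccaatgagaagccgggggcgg
Nr1d1, chr11:98775398-98775497, minus strand: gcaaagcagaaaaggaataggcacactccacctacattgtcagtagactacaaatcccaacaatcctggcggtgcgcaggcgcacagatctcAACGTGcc
Per3, chr4:151044796-151044895, minus strand: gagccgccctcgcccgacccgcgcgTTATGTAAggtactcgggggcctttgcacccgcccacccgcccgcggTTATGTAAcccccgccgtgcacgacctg
Arntl, chr7:113207531-113207557, plus strand: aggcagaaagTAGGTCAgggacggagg

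The motifs were searched on both strands. A gene was counted if any of its windows held the motif, while the percentages count single windows. The E-box, CACGTG, was found for 2 of the 9 matched genes (Per1 and Cry1) and in 7.15% of 32851 windows of the same length. Its variant CACGTT was found for 3 genes (Cry1, Cry2 and Nr1d1) and in 4.68% of windows. The D-box, searched as TTANGTAA, was found for 1 gene, with 2 matches for Per3, and in 2.32% of windows. The ROR element was searched in a pair of spellings. The spelling TAGGTCA was found for 1 gene, Arntl, and in 2.61% of windows, while TGGGTCA was found for 0 genes and in 3.98% of windows. The cyclic AMP response element (CRE), TGACGTCA, was found for 0 genes and in 1.79% of windows; the absence of a match says only that these letters are not in the windows searched. Of the 13 windows of the matched genes, 2 held the E-box, 3 its variant, 1 the D-box, 1 TAGGTCA, 0 TGGGTCA and 0 the CRE. The searched motifs do not overlap in the stretches shown.

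The 10 clock genes were expressed in all 6 libraries, and the highest library exceeded the lowest by a factor of 1.19 (Cry1) to 1.40 (Per3). None of the 10 passed limma's test between saline and morphine (adjusted p of 0.239 for Cry2, the lowest of the 10), and 0 of the 10 had an unadjusted p under 0.05. Over all tested genes 1.51% passed the adjusted test (0.944% higher and 0.561% lower in morphine) and 22.3% had an unadjusted p under 0.05. The split was 138 genes higher and 82 lower, and 101 higher and 853 lower after rescaling to transcripts per 1e6 (TPM), under which all 10 clock genes had a fold change below 0 and still 0 passed. Ratios of the morphine mean to the saline mean ran from 0.874 for Per1 to 1.04 for Per3. The 95% intervals of the 10 fold changes, not adjusted for their number, lay between -0.39 and 0.32 on the log2(FPKM + 1) scale on which all fold changes here are given.

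**Figure D1:**
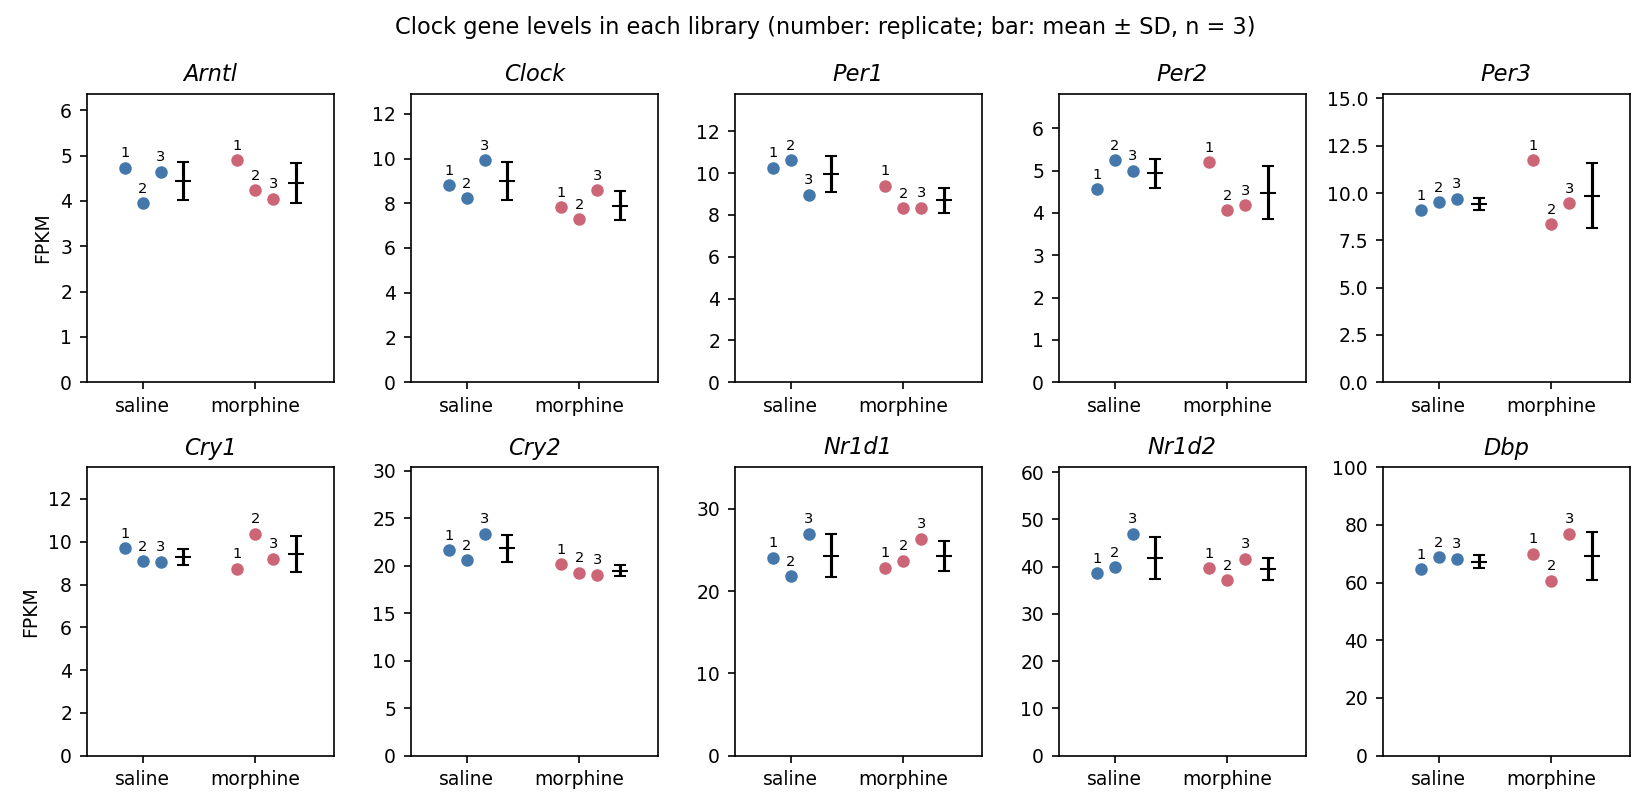
FPKM of each of the 10 clock genes (y axis, from 0) in the 3 saline libraries (blue) and 3 morphine libraries (red), with the replicate number over each point and the mean and SD of each group as a black bar. The groups overlap for every gene shown except Cry2, whose morphine points (19.05 to 20.17 FPKM) lie below its saline points (20.58 to 23.39 FPKM).

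By level, Dbp came first at 60.61 to 76.95 FPKM over the 6 libraries, followed by Nr1d2 at 37.18 to 47.01 FPKM. Nr1d1 (21.79 to 26.98 FPKM) and Cry2 (19.05 to 23.39 FPKM) overlapped. Per3, Per1, Cry1 and Clock came next with overlapping ranges, from 7.28 FPKM for Clock to 11.74 FPKM for Per3. Per2 (4.06 to 5.25 FPKM) and Arntl (3.95 to 4.90 FPKM) were lowest and overlapped. At the estimated depths of 17.9 to 26.1 M fragments per library, taken from the steps of the low FPKM values, these levels stood for roughly 284 fragments (Arntl, morphine 3) to 4623 fragments (Nr1d2, saline 2), counted over the longest annotated transcript. In saline 1, 2 and 3 the estimated depth was 21.5, 26.1 and 21.3 M. In morphine 1, 2 and 3 it was 19.9, 17.9 and 18.6 M. Summed FPKM, by which TPM rescaling divides, was 664464, 670280 and 662470 under saline and 741145, 722161 and 720234 under morphine. The groups did not overlap in depth or in summed FPKM, so neither can be told apart from treatment.

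Arntl, the partner shared by the activating dimers, lies on chromosome 7 from 113207465 to 113314126 of mm10. Its level in saline 1, 2 and 3 was 4.73, 3.95 and 4.64 FPKM, and in morphine 1, 2 and 3 it was 4.90, 4.23 and 4.05 FPKM. Saline 2 was the lowest library and morphine 1 the highest, and the groups overlapped across nearly their whole range. The means were 4.44 ± 0.427 and 4.39 ± 0.448 FPKM (SD, n = 3 each), with a log2 fold change of -0.01 (95% interval -0.25 to 0.23, limma adjusted p = 0.953).

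Clock, the other subunit of the dimer (chromosome 5, 76209868 to 76304792), was at 8.82, 8.23 and 9.93 FPKM under saline and at 7.82, 7.28 and 8.58 FPKM under morphine. Saline 3 was highest and morphine 2 lowest, and 1 morphine library lay above the lowest saline library. The log2 fold change was -0.17 (95% interval -0.39 to 0.06, limma adjusted p = 0.345), and an exact permutation test on FPKM, two-sided, gave p = 0.2, where 3 against 3 libraries cannot go below 0.1. Npas2, which can replace Clock in the dimer, was at 1.78 FPKM under saline and 1.82 FPKM under morphine.

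Among the repressors, Per1 (chromosome 11, 69095217 to 69109960) has promoter elements for both the clock and cyclic AMP signalling. It was at 10.25, 10.62 and 8.96 FPKM under saline and at 9.40, 8.32 and 8.35 FPKM under morphine. The highest values were those of saline 1 and saline 2, while saline 3 lay below morphine 1. Its log2 fold change of -0.17 (95% interval -0.38 to 0.04) was the furthest from 0 of the 10 and did not pass (limma adjusted p = 0.302, exact permutation p = 0.2).

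Per2, the paralog whose loss shortens or abolishes rhythms in mice, was at 4.56, 5.25 and 5.00 FPKM under saline and at 5.20, 4.06 and 4.18 FPKM under morphine. Morphine 2 and morphine 3 were the lowest libraries, while morphine 1 matched the upper saline values. The means of 4.94 ± 0.349 and 4.48 ± 0.626 FPKM (SD, n = 3 each) did not differ beyond their spread (limma adjusted p = 0.546).

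Per3, the paralog least needed for the rhythm itself, was at 9.09, 9.51 and 9.71 FPKM under saline and at 11.74, 8.36 and 9.45 FPKM under morphine. The 3 saline values lay within the morphine range, which held both the highest and the lowest library. Its ratio of highest to lowest library was 1.40, the largest of the 10 genes, and came from morphine 1 against morphine 2 (limma adjusted p = 0.851).

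Cry1, the strongest repressor of the dimer and the last of the loop to peak, was at 9.70, 9.09 and 9.07 FPKM under saline and at 8.74, 10.38 and 9.20 FPKM under morphine. Morphine 2 was highest here, although it was the lowest library for 6 of the other genes. The ratio of highest to lowest library was 1.19, the smallest of the 10 (limma adjusted p = 0.914).

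Cry2, the second cryptochrome, was at 21.63, 20.58 and 23.39 FPKM under saline and at 20.17, 19.27 and 19.05 FPKM under morphine. All 3 morphine libraries lay below all 3 saline libraries, the gap between the groups being that from 20.17 to 20.58 FPKM. The log2 fold change was -0.16 (95% interval -0.32 to 0.01, limma adjusted p = 0.239), and the exact permutation p was 0.1, the smallest possible. Cry2 was the 1 member of 10 (10%) with groups that did not overlap, against 28.7% of all tested genes in either direction and 15.7% with morphine lower.

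Nr1d1, the main repressor of Arntl, was at 24.06, 21.79 and 26.98 FPKM under saline and at 22.83, 23.71 and 26.34 FPKM under morphine. Saline held both the lowest and the highest library, and the means of 24.3 ± 2.60 and 24.3 ± 1.83 FPKM (SD, n = 3 each) were the closest of the 10 in ratio (log2 fold change 0.00, limma adjusted p = 0.987). Nr1d1 shares 263 nt of exonic sequence with Thra, the thyroid hormone receptor alpha gene on the opposite strand, which was at 146 FPKM in both groups. The sources used here do not say whether counting used strand, so the division of fragments between Nr1d1 and Thra is uncertain.

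Nr1d2, the second REV-ERB, was at 38.58, 39.91 and 47.01 FPKM under saline and at 39.68, 37.18 and 41.72 FPKM under morphine. Saline 3 stood above the other 5 libraries, which spanned 37.18 to 41.72 FPKM (limma adjusted p = 0.650).

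Dbp, an output factor and the member with the highest level, was at 64.70, 68.85 and 68.26 FPKM under saline and at 69.96, 60.61 and 76.95 FPKM under morphine. The saline libraries lay close together, between morphine 2 below and morphine 1 and 3 above. The means were 67.3 ± 2.25 and 69.2 ± 8.20 FPKM (SD, n = 3 each; log2 fold change 0.03, 95% interval -0.18 to 0.25, limma adjusted p = 0.854). Dbp shares 539 nt of exonic sequence with Sphk2 on the opposite strand, which was at 11.6 FPKM under saline and 9.51 FPKM under morphine, so the same limit on strand holds for it.

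Whether the libraries differed in phase was read from 2 indices, each a difference of mean log2(FPKM + 1) values within a library, so that a common scaling nearly cancels. The evening-minus-morning index set Nr1d1, Dbp, Nr1d2, Per1, Per2 and Per3 against Arntl and Clock. In its name, evening stands for peaks from day to early night and morning for peaks towards the end of the night. The index was 1.31, 1.50 and 1.33 in saline 1, 2 and 3 and 1.44, 1.38 and 1.44 in morphine 1, 2 and 3. The 3 morphine libraries thus lay inside the range of the saline libraries, and the extremes of the series, saline 1 and saline 2, belonged to the same group. The means were 1.38 ± 0.107 under saline and 1.42 ± 0.0342 under morphine (SD, n = 3 each), a difference of 0.04 in log2 units that was smaller than the saline SD. The whole range over 6 libraries was 0.20 log2 units, a factor of 1.15.

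The difference of this index between groups depended on single genes and libraries. It was -0.04 with Arntl alone as the morning arm, 0.12 with Clock alone and 0.01 with Arntl, Clock and Npas2. It was 0.01 without saline 1, 0.02 without saline 3 and 0.10 without saline 2.

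The day-minus-night index set Nr1d1 and Dbp against the later Per2 and Cry1. It shares Nr1d1, Dbp and Per2 with the evening-minus-morning index, so the indices are not independent readings. The day-minus-night index was 2.40, 2.33 and 2.50 under saline and 2.40, 2.36 and 2.67 under morphine. Morphine 3 was the highest library, with the highest Dbp of the series together with a low Per2, while the other 5 libraries spanned 2.33 to 2.50. The means were 2.41 ± 0.0871 and 2.48 ± 0.165 (SD, n = 3 each), and the difference of 0.07 turned to -0.03 without morphine 3. It was 0.03 without saline 2, and above 1.5 times the full value without saline 3 (0.12), morphine 1 (0.11) or morphine 2 (0.13).

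**Figure D2:**
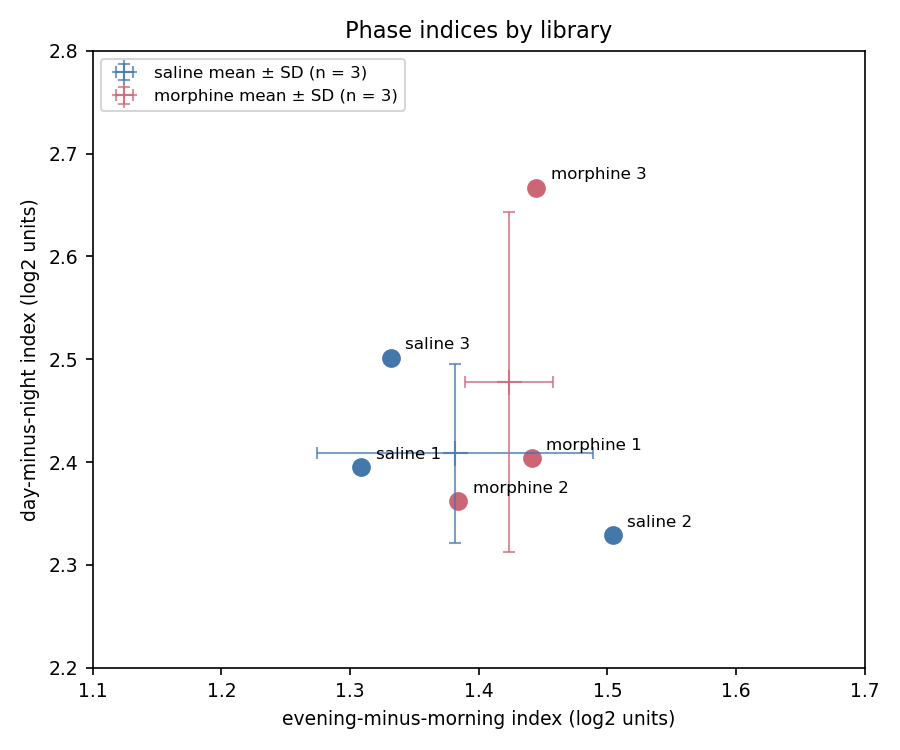
Each library by its evening-minus-morning index (x axis, log2 units) and its day-minus-night index (y axis, log2 units), with group means and SD (n = 3) as crosses. The saline and morphine libraries are mixed along the x axis, between 1.31 and 1.50, and morphine 3 stands highest on the y axis at 2.67. The axes do not start at 0.

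The plain ratios of FPKM did not all order the libraries as the evening-minus-morning index did. Dbp over Arntl was 13.7, 17.4 and 14.7 under saline and 14.3, 14.3 and 19.0 under morphine, so that saline 2 and morphine 3 were high and the other 4 libraries lay close together. Nr1d1 over Arntl was 5.09, 5.52 and 5.81 under saline and 4.66, 5.61 and 6.50 under morphine. Morphine held both extremes of this ratio, while saline 2 was in the middle and had the lowest Nr1d1 of the series. Per2 over Arntl was 0.964, 1.33 and 1.08 under saline and 1.06, 0.960 and 1.03 under morphine, with saline 2 high and morphine 3 near the middle. The highest library exceeded the lowest by a factor of 1.39, 1.40 and 1.38 for the 3 ratios, and the groups overlapped in each.

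The arms of the evening-minus-morning index were also read gene by gene within each library. In saline 3, 5 of 6 evening genes and both morning genes were above their means over the 6 libraries. In morphine 2, 0 of 6 evening genes and 0 of 2 morning genes were above their means. Saline 1 had 1 of 6 evening and 2 of 2 morning genes above, and saline 2 had 3 of 6 and 0 of 2. Morphine 1 had 4 of 6 and 1 of 2, and morphine 3 had 3 of 6 and 1 of 2. The arm means moved the same way in saline 3, morphine 1 and morphine 2, and saline 1 and saline 2 were the libraries in which the arm means moved apart most (-0.02 against 0.07 and 0.02 against -0.08 in log2 units).

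**Figure D3:**
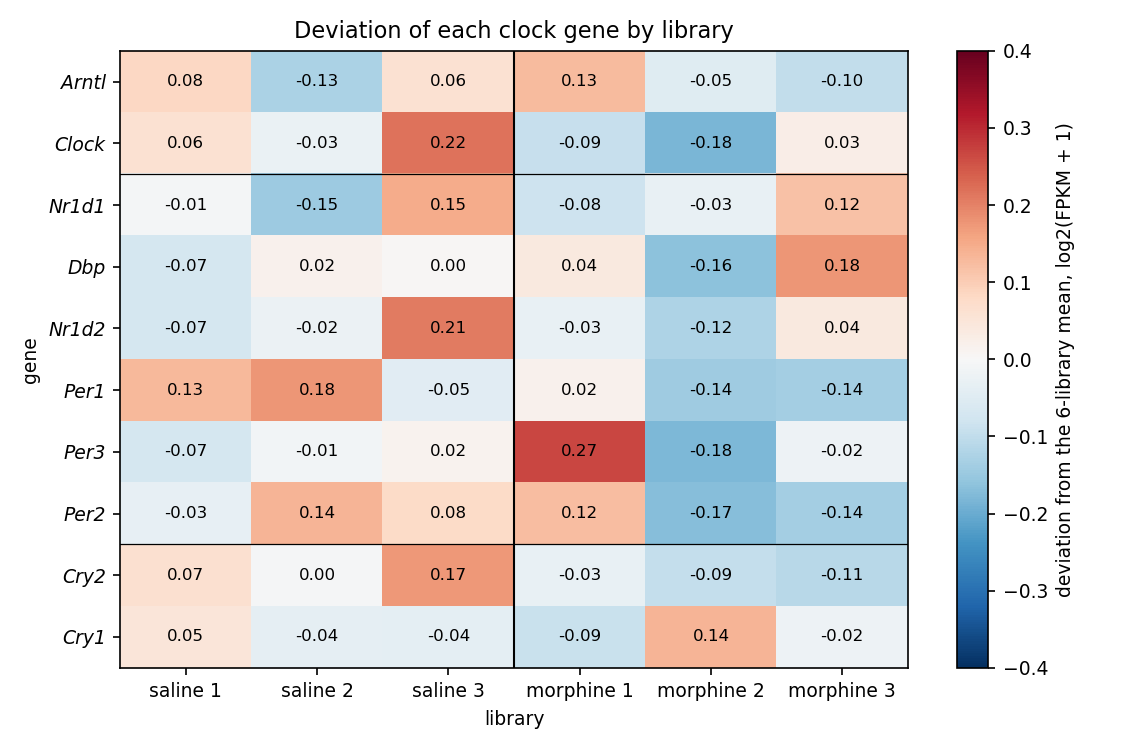
Deviation of each clock gene (rows; Arntl and Clock, then the 6 evening genes, then the cryptochromes) from its mean over the 6 libraries (columns), in log2(FPKM + 1), with red above and blue below the mean. The largest is 0.27 for Per3 in morphine 1, and morphine 2 is below the mean for every gene except Cry1.

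No inverse relation of Arntl with the genes that peak opposite to it passed a test across the 6 libraries. With Dbp, Pearson's r was -0.21 (exact permutation p = 0.703, adjusted over 3 relations 0.803) and Spearman's rho was -0.14 (exact permutation p = 0.803, adjusted 1). With Nr1d1, r was 0.11 (exact permutation p = 0.803, adjusted 0.803) and rho was 0.14 (exact permutation p = 0.803, adjusted 1). With Per2, r was 0.31 (exact permutation p = 0.528, adjusted 0.803) and rho was 0.03 (exact permutation p = 1, adjusted 1). Without saline 2 and morphine 1, the libraries furthest from the median of Arntl, r was -0.40, -0.07 and 0.80 in that order. With the group means removed, r was -0.20, 0.11 and 0.32.

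The median spread of the clock genes between libraries was close to that of other genes. The SD within groups on the log2 scale ran from 0.0695 for Cry2 to 0.162 for Per3, with a median of 0.118 over the 10 genes, against a median of 0.120 over all 14614 tested genes and 0.112 over the 9621 with a mean of 4 to 80 FPKM. Of the 10 genes, 5 lay below the median of all tested genes, and 3 below that of genes with a mean of 4 to 80 FPKM. Per3 stood at percentile 68.9 of all tested genes, Per2 at 54.9, Nr1d1 at 54.3 and Dbp at 53.1. Clock and Arntl stood at 47.2 and 48.4, and Cry2 at 18.8. For Dbp the coefficient of variation over the 6 libraries was 8.03%, above the 2.39% that counting alone gives at its lowest fragment number. For Arntl these were 8.88% and 5.93%, so counting error was a larger part of its spread.

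Other clock factors and output genes, a list of 16 that were all tested, gave 0 that rose and 0 that fell. Of these, 9 had a lower mean in morphine (53.1% of all tested genes), with a median log2 fold change of -0.01 against -0.02 for all tested genes. Against 22.3% of all tested genes, 1 of the 16 had an unadjusted p under 0.05. This was Usp2, a deubiquitinase under clock control, at 8.01, 7.92 and 6.30 FPKM under saline and 8.77, 11.20 and 11.21 FPKM under morphine (limma adjusted p = 0.105). All its morphine values lay above its saline values, which held for 13.0% of tested genes. Bhlhe40, a repressor that competes for E-boxes, was at 28.3 and 24.5 FPKM (adjusted p = 0.263).

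Of the 16 genes, 2 had groups that did not overlap (28.7% of all tested genes), Usp2 and Bhlhe41. Bhlhe41, the paralog of Bhlhe40, was at 24.14, 24.87 and 23.18 FPKM under saline and at 26.70, 25.09 and 26.02 FPKM under morphine (limma adjusted p = 0.352). Ciart, a repressor that is strongly rhythmic in many tissues, was at 14.39, 14.50 and 13.56 FPKM under saline and 14.29, 13.50 and 14.75 FPKM under morphine. Its groups overlapped, with means of 14.2 FPKM in each (limma adjusted p = 0.986). Tef and Hlf, relatives of Dbp that bind the same D-boxes, were at 70.6 and 16.6 FPKM under saline and at 66.8 and 15.1 FPKM under morphine. Nfil3, which opposes them at D-boxes, was at 4.41 and 4.39 FPKM.

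**Figure D4:**
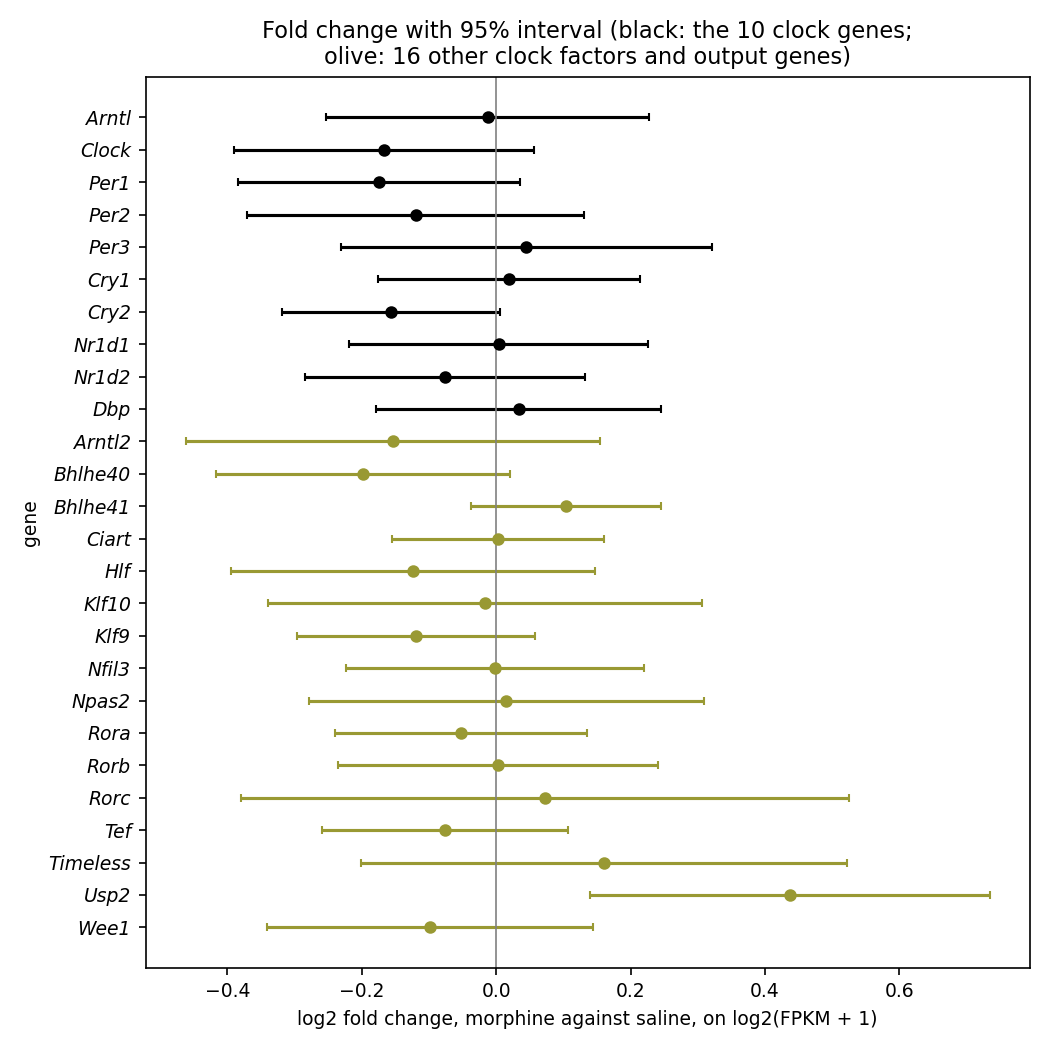
Log2 fold change of morphine against saline on log2(FPKM + 1) (x axis) with its 95% interval from limma for the 10 clock genes (black) and 16 other clock factors and output genes (olive), n = 3 libraries per group. The intervals of all 10 clock genes include 0, and among the others that of Usp2 lies above 0.

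Of 13 kinases, ubiquitin ligases and cofactors of clock proteins, 13 were tested, 0 rose and 0 fell. Of them, 4 had an unadjusted p under 0.05, against 22.3% of all tested genes. The groups did not overlap for 4 (28.7% of all tested genes), with morphine lower for 3 (Csnk1d, Gsk3b and Fbxw11) and higher for Hdac3. Hdac3, the deacetylase that REV-ERB proteins recruit, was at 41.85, 42.87 and 43.29 FPKM under saline and at 55.51, 49.89 and 55.61 FPKM under morphine. Every morphine library lay above every saline library, which held for 13.0% of tested genes (log2 fold change 0.32, limma adjusted p = 0.0548). Hdac3 passed under 2 of 15 alternatives, without morphine 2 (adjusted p = 0.0330) and when genes under 5 FPKM were left out (0.0479). It did not pass under the other 13, and the adjusted p over all 15 ran from 0.0330 to 0.183. Fbxw11, a ligase subunit that targets PER proteins, was at 39.6 and 33.6 FPKM (adjusted p = 0.120). Csnk1d and Csnk1e, the casein kinases that mark PER proteins for removal, were at 37.7 and 39.7 FPKM under saline and at 34.2 and 41.3 FPKM under morphine.

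Other inputs to Per1 are given for comparison. Of 14 tested early genes of activity and CREB signalling, 1 fell, 0 rose and 13 had a lower mean, with a median log2 fold change of -0.28. Over all tested genes 0.561% fell and 53.1% had a lower mean, with a median of -0.02. Fos, the member that fell, was at 23.77, 21.18 and 22.95 FPKM under saline and at 10.23, 12.49 and 8.97 FPKM under morphine (limma adjusted p = 0.0361). The call on Fos was lost without any 1 library other than morphine 2, with adjusted p of 0.0925 (without saline 3) to 0.152 (without morphine 1). Of the 14 early genes, 8 had an unadjusted p under 0.05, against 22.3% of all tested genes. Of the 15 listed, 8, Fos among them, had groups apart with morphine lower, which held for 15.7% of tested genes. This list too was chosen with earlier results of these data known, so its counts are a description. The groups of Per1 overlapped. A link between the values of Per1 and Fos was not tested. Of 13 tested genes that respond to glucocorticoids, which also act on Per1, 0 rose and 0 fell, with a median of 0.06. Of them, 3 had an unadjusted p under 0.05, against 22.3% of all tested genes. Mt1 and Mt2, metallothioneins, had the smallest p values, at 761 and 404 FPKM under saline and 1190 and 617 FPKM under morphine (adjusted p = 0.0713 and 0.0929).

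Body temperature also carries time to peripheral clocks. Of 9 tested genes that respond to temperature, 4 fell and 1 rose, with a median log2 fold change of -0.23, against 0.561% and 0.944% of all tested genes. The list was chosen with earlier results of these data known, so its counts are a description and cannot show an excess. The inducible chaperone genes Hspa1b and Hspa1a were at 19.9 and 8.78 FPKM under saline and at 3.99 and 1.30 FPKM under morphine (limma adjusted p = 0.0149 and 0.0361), though as near-identical copies they share fragments. Dnajb1, their cochaperone, fell from 28.6 to 18.8 FPKM (adjusted p = 0.0375). Cold-inducible Rbm3, whose protein binds RNA, rose from 138 to 203 FPKM (adjusted p = 0.0391). Of the 9 genes, 0 passed without saline 1, saline 3, morphine 1 or morphine 3, and 2 (Hspa1b and Hspa1a, both lower) passed without saline 2. What set the values of the 5 genes that passed was not tested.

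Candidates for likeness to the evening-minus-morning index were tested protein-coding genes with a mean of at least 5 FPKM, without the clock members. Symbols with the form of predicted, clone, ribosomal, pseudogene or opposite-strand names were left out, which also dropped Fos. The 5 candidates that ran most like the index were Dnmt3a, Parp2, Tma16, Lrrc1 and Cuedc1, with Pearson's r of 0.98, 0.97, 0.95, 0.95 and 0.93 over the 6 libraries. Those most opposed to it were Vps26a, Mettl23, Cmc2, Pigu and Qrsl1, with r of -0.99, -0.97, -0.95, -0.95 and -0.94. Among 9124 candidate genes, 12 had an r above 0.9 and 12 below -0.9. The index itself spans 0.20 log2 units, and these values are a description of 6 libraries.

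Libraries differed in their levels of cell type markers. The summed level of 6 motor and cholinergic neuron markers was 93.0, 80.8 and 15.8 FPKM under saline and 23.5, 78.1 and 8.84 FPKM under morphine, with Chat at 8.19, 7.70 and 2.08 FPKM and 2.13, 7.97 and 1.20 FPKM. In bulk RNA, fewer cells of a type and less RNA per cell cannot be told apart. Saline 1, saline 2 and morphine 2, the libraries rich in these markers, had the 3 lowest day-minus-night indices of the series (2.40, 2.33 and 2.36), against 2.40 to 2.67 in the other 3, saline 1 lying just below morphine 1. Their evening-minus-morning indices were the lowest (saline 1), the highest (saline 2) and a middle value (morphine 2). Saline 1, saline 2 and morphine 2 also had the 3 highest sums of oligodendrocyte markers (at least 17446.5 against at most 15269.3 FPKM in the other 3). The same held for astrocyte (at least 758 against at most 593 FPKM) and meningeal fibroblast markers (at least 33.0 against at most 25.9 FPKM). Their neuronal sums were the 3 lowest (1997 to 2093 against 2131 to 2247 FPKM). The part of any of these markers in either index was not tested. Sums for 4 neuronal (1997 to 2247 FPKM), 4 oligodendrocyte, 4 astrocyte, 5 microglial, 3 endothelial and 4 meningeal fibroblast markers overlapped between groups. Single markers did not all do so. Of the endothelial 3, Pecam1 was at 5.09 to 5.29 FPKM under saline and 2.69 to 3.85 FPKM under morphine (limma adjusted p = 0.0589). Flt1 was at 8.94 to 10.83 and 6.50 to 8.85 FPKM (limma adjusted p = 0.145). Cldn5 overlapped between groups, with a higher mean in morphine (22.5 and 24.3 FPKM). Of the 4 astrocyte markers, Aqp4 was at 120.9 to 135.9 FPKM under saline and 87.2 to 115.9 FPKM under morphine (limma adjusted p = 0.134). Gfap (520 and 537 FPKM) and Aldh1l1 (17.9 and 19.5 FPKM) had higher means in morphine and Slc1a3 a lower one (27.6 and 25.0 FPKM). All 3 overlapped between groups. Of all tested genes, 15.7% had groups that did not overlap with morphine lower. Red cell markers, 5 in all, summed to 757 to 1077 FPKM under saline and 421 to 595 FPKM under morphine, with Hbb-bt as the 1 member that fell. The 4 ependymal markers summed to 11.3 to 14.6 FPKM under saline and 15.8 to 17.5 FPKM under morphine, groups that did not overlap. Foxj1, the most abundant of the 4, did overlap (means of 9.67 and 9.85 FPKM). Rsph1 also overlapped (2.88 to 3.09 and 2.72 to 5.41 FPKM). Tmem212, under the filter, was at 0 to 0.39 and 0.56 to 0.76 FPKM. Ccdc153 was at 0.11, 0.53 and 0.08 FPKM under saline and 1.36, 1.25 and 1.83 FPKM under morphine. It entered the test only through its morphine libraries, so its adjusted p is not given. The call on Hbb-bt was lost without any 1 library other than morphine 2. The part of these differences in the clock gene values was not tested. The 4 markers each of dorsal root ganglion and skeletal muscle and the 3 of choroid plexus summed to at most 0.31, 7.90 and 1.80 FPKM, and Hoxc10, a lumbar homeobox gene, was at 59.0 and 56.1 FPKM.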

How the data were processed

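The authors deposited FPKM values with 2 decimals for 52513 genes in 6 columns named as the sample descriptions are. Per the labels, PureLink and Trizol were used on total RNA and a stranded KAPA kit for the libraries. The submitters' processing notes name the mm10 build and the tools RSEM, STAR, Trimmomatic and bcl2fastq (version 2.19.0). Other versions, the annotation and whether counting used strand: not given in the sources used here.

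Values were taken as log2(FPKM + 1), without rescaling, for genes reaching 1 FPKM in 3 or more libraries. The groups were compared with limma (version 3.58.1, R 4.3.3), its variances moderated with a trend on level, two-sided, with Benjamini-Hochberg adjustment over all 14614 tested genes and a threshold of 0.05. Single genes also had exact permutation tests (SciPy 1.17.1, Python 3.11.15). Coordinates came from GENCODE M21. Depth was estimated from genes with 1 transcript of 300 to 1500 nt: at the best depth, 77.2% to 80.0% of low values came out whole to within 0.05 fragments, or to within the rounding of the table if that was wider. The model was tested on simulated data.

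The members and lists were chosen with earlier results of these data known. Named genes were all 10 members, per other list up to 4 that passed or the 2 with the smallest p, and the 5 genes most and least like the index. For cell types the plan was the first marker of each list, which was followed for Chat and Hoxc10. Levels of other first markers, such as Rbfox3, Mbp, Cx3cr1, Col1a1 and Hba-a1, are not given singly. Genes chosen after their values were seen include Npas2, Bhlhe41, Ciart, Tef, Hlf, Nfil3, Csnk1d and Csnk1e. Among cell type markers these were Pecam1, Flt1, Cldn5, Aqp4, Gfap, Aldh1l1, Slc1a3, Foxj1, Rsph1 and Tmem212. No label says that libraries of a group came from separate animals, so p-values measure the spread between these libraries.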

Additional observations from a re-analysis of the deposited data

How the results depend on the processing

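Under each of the 15 alternatives, 0 of the tested clock genes passed limma's threshold, and the lowest adjusted p was 0.0589 (Cry2 after rescaling to transcripts per 1e6, TPM). TPM rescaling moved the median log2 fold change of all tested genes from -0.02 to -0.13 and put all 10 members below 0 (median -0.16), with 3 at an unadjusted p under 0.05. Of 149 member values, 19 had the other sign. With TPM these were Per3 (-0.074), Cry1 (-0.10), Nr1d1 (-0.12) and Dbp (-0.094); with quantile normalization Arntl (0.014) and Dbp (-0.016); and with the length trend removed, an alternative added after seeing the data, Arntl (0.058) and Nr1d1 (-0.010). Leaving out 1 library gave -0.077 to 0.15 for Per3, -0.045 to 0.067 for Cry1, -0.079 to 0.033 for Arntl, -0.069 to 0.079 for Nr1d1, -0.13 to 0.0087 for Nr1d2 and -0.046 to 0.12 for Dbp. The cause was not tested.

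Of all tested genes 220 passed (138 higher, 82 lower), against 954 with TPM (101 higher, 853 lower), 102 with quantile normalization (47 higher, 55 lower), 8 with no filter, 338 at 5 FPKM, 36 with no intensity trend, 34 with the length trend removed and 1 to 805 without 1 library (805 without morphine 2). Of the 29 other clock genes, 2 passed with TPM (Fbxw11 and Gsk3b), 1 at 5 FPKM (Hdac3) and 0 to 1 without 1 library. The plan did not take the numbers to pair libraries. Same-numbered libraries correlated at -0.13, 0.16 and 0.29 in their deviations from the group means. Differently numbered libraries correlated at -0.34 to 0.24. The limma fit with the replicate block called 24 genes and 0 members (Fos adjusted p = 0.0521). Of the glucocorticoid-responsive genes 2 rose in that fit, Mt1 and Mt2 (limma adjusted p = 0.0356 each). The difference between groups moved by less than 1 pooled within-group SD for both indices under every alternative tried. Arntl, with the fewest fragments, is the member whose precision depth limits most.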
